A study of Mus musculus with 16 samples.

Results

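The liver transcript levels of Rbfox2 and 9 other regulators of alternative splicing were followed across diet and feeding state. The 10 genes were Rbfox2, Mbnl1, Mbnl2, Celf1, Ptbp1, Qk, Esrp2, Tia1, Taf15 and Pcbp2, and their rows were found by Ensembl identifier among the 46078 genes of the count table. All 10 were detected in every library, with 271 to 8576 counts per gene and library, and all 10 passed the filter on low counts that left 15075 genes for testing. Polyadenylated RNA of mouse liver was sequenced in 16 libraries, 4 in each of 4 groups. CD fed livers came from mice on a control diet (CD) with food freely available, and CD fast livers from mice on the same diet after a 16 h fast. HFD fed and HFD fast livers came from mice on a high-fat diet (HFD, 60% of calories from fat), again with free access to food or after a 16 h fast. Every mouse had been on its diet for 16 weeks. Per the study's methods the mice were C57BL6/J males, 8 weeks old when the diets began, although the labels spell the strain C56B6/J. No group carried a transgene, a deletion or a drug. Libraries held 41364448 to 57583153 counts. The labels number the samples within a group without naming the mice, so p-values here measure the spread between these samples.

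Alternative splicing lets one gene give several mRNAs, and RNA-binding proteins decide which exons are kept by binding short motifs in or beside them. RBFOX proteins bind the letters UGCAUG and tend to promote an exon when bound downstream of it and to repress it when bound upstream. MBNL and CELF proteins act against each other on many exons during development, PTBP1 is best known as a repressor of exons, QK (quaking) binds introns around regulated exons, and ESRP2 maintains an epithelial splicing programme in hepatocytes. TIA1 binds U-rich stretches beside weak 5′ splice sites, TAF15 is an RNA-binding protein related to EWSR1, and PCBP2 binds C-rich RNA. Gene counts do not resolve isoforms, so which exons were included, and which protein forms of each regulator were made, was not analysed here. Rbfox2 and several of the other genes were picked out with results of these libraries known, so their changes below are a description of these samples and not independent evidence.

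The tissue label was checked against markers of liver cell types. Albumin (Alb) alone took 5.47% to 11.9% of the counts of a library. The summed level of 6 hepatocyte markers (Alb, Apoa1, Ttr, Cps1, Hnf4a, Asgr1) lay between 68990 and 135592 CPM, the counts of a gene relative to the scaled total of its library. The 6 markers of endothelial cells, Kupffer cells and stellate cells summed to 164 to 267, 170 to 442 and 126 to 381 CPM, those of cholangiocytes to 22.2 to 62.4 CPM and those of lymphocytes to 1.72 to 5.87 CPM. No marker was at 0 in all 16 libraries. In bulk tissue, fewer cells of a type and less RNA per cell cannot be told apart, and this holds for every level below.

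Fasting was the first comparison, made to find which regulators respond to the feeding state. In CD livers, 3 of the 10 regulators passed the test: Esrp2 and Rbfox2 rose and Taf15 fell. Of all genes tested, 25.2% were called in this comparison, so a share of 3 in 10 is close to the background. The median log2 fold change over the 10 genes was -0.0011, against -0.0092 over all genes tested. The fed and fasted libraries did not overlap for 2 members, Rbfox2 and Esrp2, and for 25.4% of all genes.

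Rbfox2 (ENSMUSG00000033565, GRCm38 chromosome 15, 77078990 to 77307004, minus strand) had the most counts of the RBFOX genes in these livers. Its level was 29.0, 31.9, 32.8 and 32.6 CPM in the 4 CD fed libraries and 40.9, 40.3, 36.6 and 43.0 CPM in the 4 CD fast libraries. It was 35.1, 35.5, 31.4 and 35.1 CPM in HFD fed and 39.3, 36.2, 42.1 and 37.2 CPM in HFD fast livers. Every fasted library lay above every fed library of its own diet, and the distance between the means was larger in CD than in HFD. Fasting raised Rbfox2 by 27.3% in CD livers (95% interval 14.8% to 41.1%), a log2 fold change of 0.35 ± 0.07 (SE) with an adjusted p of 0.00240 in edgeR's quasi-likelihood test. In HFD livers the log2 fold change was 0.17 ± 0.07, a difference of 12.8% (1.76% to 25.1%) that did not pass the threshold (adjusted p = 0.131). Averaged over both diets, fasting gave a log2 fold change of 0.26 ± 0.05 (adjusted p = 0.00129). The change in CD and the averaged change kept their calls when any 1 of the 16 libraries was left out.

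The difference between the diets in the fasting change of Rbfox2 was tested directly and did not pass. The log2 fold change in HFD was lower than that in CD by 0.17 with an SE of 0.10, and its 95% interval ran from -0.38 to 0.04 (adjusted p = 0.340). No HFD comparison of Rbfox2 passed. HFD fed exceeded CD fed livers by a log2 fold change of 0.12 ± 0.07 (95% interval -0.03 to 0.27, adjusted p = 0.341). HFD fast differed from CD fast livers by -0.06 ± 0.07 (-0.20 to 0.09, adjusted p = 0.657), a value that took the opposite sign when libraries were scaled by total counts. One HFD fed library, replicate 3 at 31.4 CPM, stood below the other 3 of its group, and without it the fasting change in HFD was 0.13 (adjusted p = 0.315). Over the 16 fits with a single library omitted, this change ran from 0.13 to 0.19 and did not pass in any. Its adjusted p was highest without HFD fast replicate 3 (0.327).

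Esrp2 (ENSMUSG00000084128, chromosome 8, 106130319 to 106136974, minus strand) showed the largest fasting change of the 10. It measured 80.3, 82.3, 91.3 and 89.8 CPM in CD fed and 131, 132, 133 and 129 CPM in CD fast livers. In HFD fed livers it measured 94.8, 95.02, 91.0 and 88.6 CPM, and in HFD fast livers 128, 123, 121 and 94.2 CPM. The CD groups were far apart, whereas HFD fast replicate 4 lay inside the HFD fed range. Fasting raised Esrp2 by 52.6% in CD (35.0% to 72.4%, log2 fold change 0.61 ± 0.08, adjusted p = 0.000130) and by 26.1% in HFD (11.6% to 42.5%, 0.33 ± 0.08, adjusted p = 0.0220). The averaged fasting change was 0.47 ± 0.06 (adjusted p = 4.69e-05). Without HFD fast replicate 4 the change in HFD was 0.42 (adjusted p = 0.00182), and it missed the threshold without any 1 of HFD fed replicates 1 and 3 or HFD fast replicates 1, 2 and 3 (adjusted p of 0.0547 to 0.0712) or when the HFD groups were fitted alone (0.0674). The diets differed in the fasting change of Esrp2 by -0.27 ± 0.12, which did not survive adjustment (adjusted p = 0.202). Exons of Esrp2 overlap those of Nfatc3 and of 1810019D21Rik on the opposite strand, and although the reads were aligned as strand-specific per the study's methods, whether the counting used strand is not given in the sources used here. Nfatc3 itself had log2 fold changes of -0.03 ± 0.07 and -0.02 ± 0.07 with fasting in CD and HFD. 1810019D21Rik had -0.06 ± 0.17 in CD and 0.71 ± 0.18 in HFD (adjusted p = 0.0227).

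**Figure D1:**
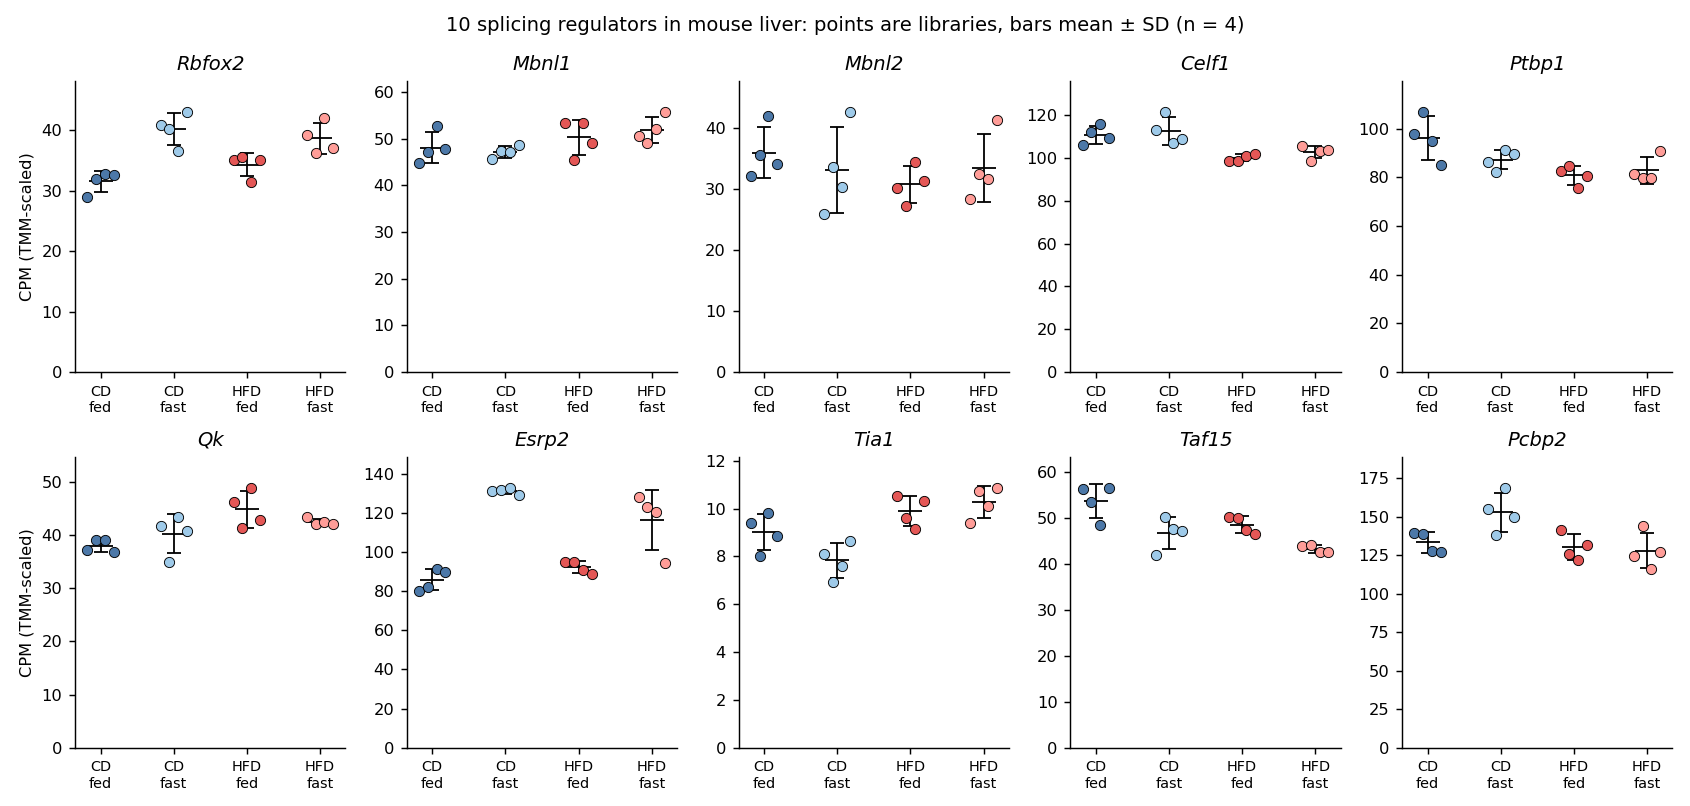
Level of each of the 10 regulators in every library, in CPM on an axis that starts at 0, for CD fed, CD fast, HFD fed and HFD fast livers. Points are libraries and bars are the mean ± SD of 4; the fasted libraries of Rbfox2 lie above the fed ones on each diet, and HFD fast replicate 4 is the low point of Esrp2 at 94.2 CPM.

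Taf15 (ENSMUSG00000020680, chromosome 11, 83473086 to 83506743, plus strand) was the only member called lower with fasting in any of the 3 fasting comparisons of the edgeR fit. Its level was 56.3, 53.5, 48.4 and 56.6 CPM in CD fed and 42.0, 50.2, 47.6 and 47.1 CPM in CD fast livers. It was 50.2, 49.9, 47.5 and 46.4 CPM in HFD fed and 43.9, 44.2, 42.6 and 42.6 CPM in HFD fast livers. On HFD every fasted library lay below every fed one, while on CD the groups overlapped through CD fed replicate 3 and CD fast replicate 2. Fasting lowered Taf15 in CD with a log2 fold change of -0.20 ± 0.07 (adjusted p = 0.0356), and averaged over diets with -0.18 ± 0.05 (adjusted p = 0.00890). In HFD alone the value was -0.16 ± 0.07 (adjusted p = 0.133). The call in CD was lost without CD fast replicate 1 (-0.15, adjusted p = 0.105) and without any 1 of CD fed replicates 1, 2 and 4 or CD fast replicate 4 (adjusted p of 0.0515 to 0.0972), when the CD groups were fitted alone (0.107) and without the count filter (0.0704).

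In HFD livers, 1 of the 10 members passed the fasting test, Esrp2, where 8.86% of all genes were called. Groups did not overlap for 2 members, Rbfox2 and Taf15, and for 16.7% of all genes. Averaged over diets, the 3 members called were Esrp2, Rbfox2 and Taf15, against 28.8% of all genes. The median log2 fold change of the members was 0.04 in HFD, against 0.01 over all genes. In the test of whether diet changed the response to fasting, 0 of 10 members were called by edgeR, DESeq2 or limma-voom, where edgeR called 2.59% of all genes. Of the 10, 1 had an unadjusted p under 0.05 in edgeR, Esrp2 at 0.0323. As 3045 of all 15075 genes passed that unadjusted threshold, 1 of 10 does not stand above the background.

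**Figure D2:**
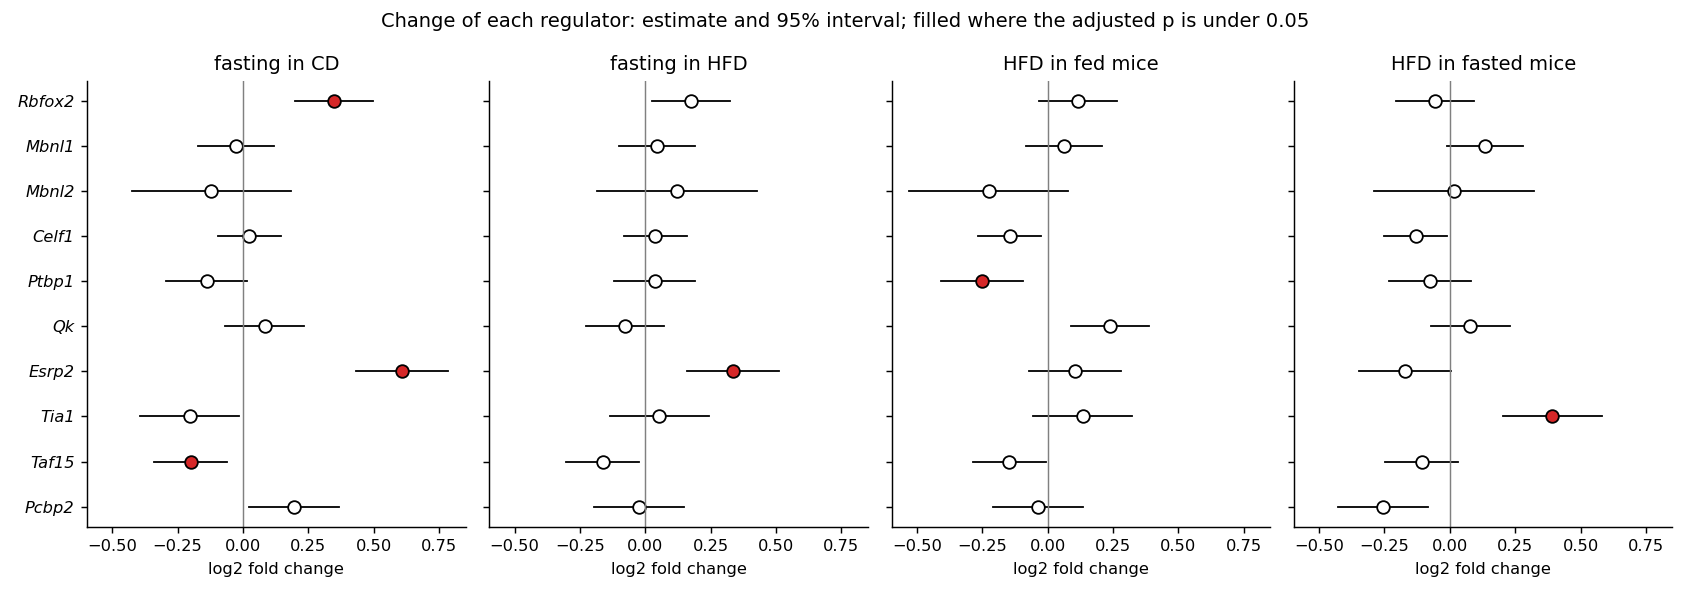
log2 fold change of each regulator in the 4 pairwise comparisons, with bars for the 95% interval of the edgeR fit and filled points for an adjusted p under 0.05. Rbfox2, Esrp2 and Taf15 are filled for fasting in CD, Esrp2 for fasting in HFD, Ptbp1 for HFD in fed mice and Tia1 for HFD in fasted mice.

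Levels of other cell types moved with the fasting comparison in CD, where 25.2% of all genes were called. The 6 endothelial markers summed to 228 to 258 CPM in CD fed and 164 to 217 CPM in CD fast livers, and 3 of the 6 fell (Pecam1, Stab2, Cdh5), to which DESeq2 added Kdr. The 6 Kupffer cell markers summed to 258 to 442 and 169.7 to 274 CPM, of which 3 of 6 fell (Clec4f, Adgre1, Csf1r), and 1 of 6 stellate markers fell (Reln). No cholangiocyte marker was called by edgeR or limma-voom, with 2 at an unadjusted p under 0.05 in edgeR, and DESeq2 called 1 higher (Spp1). Of all 15075 genes, 5674 passed that unadjusted threshold in CD. Of the 6 hepatocyte markers 1 fell (Ttr). Their sum was 102208 to 134373 CPM in CD fed and 84055 to 107292 CPM in CD fast livers, with overlap, and Alb had means of 91964 and 71997 CPM and was not called. In HFD livers, 0 of these 18 endothelial, Kupffer and stellate markers were called with fasting by edgeR, DESeq2 or limma-voom, and 0 had an unadjusted p under 0.05 in edgeR. There edgeR called 8.86% of all genes, so 0 called of 18 is close to the background, and 3864 of 15075 had an unadjusted p under 0.05. Some hepatocyte markers moved with fasting in HFD livers. The sum of the 6 was 106628 to 135592 CPM in HFD fed and 68990 to 100630.1 CPM in HFD fast livers, with no overlap. Most of this sum is Alb, with means of 97257 and 66056 CPM, and Asgr1 had a higher mean fasted (446 CPM) than fed (391 CPM) and was not called. Of these 6 markers edgeR called 1 lower (Hnf4a), and DESeq2 and limma-voom each called 3 lower (Ttr, Hnf4a, Alb). The part of these shifts in the values of Rbfox2, Esrp2, Taf15 and Pla2g6 was not tested.

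The diet was the second comparison. In fed mice 1 of the 10 members was called, Ptbp1, where 7.50% of all genes were called, and in fasted mice 1 of 10, Tia1, where 7.70% were. Averaged over feeding states 2 of 10 were called, Tia1 higher and Celf1 lower, against 12.0% of all genes. Groups did not overlap for 3 members in fed mice (Celf1, Ptbp1, Qk) and for 15.7% of all genes. In fasted mice this was so for 4 members (Mbnl1, Celf1, Esrp2, Tia1) and for 14.0% of all genes. HFD comparisons depended on the scaling of the libraries: with total counts in place of TMM factors the median of all genes moved from 0.01 to 0.17 in fasted mice, so each direction below is relative to the TMM scale unless both are given.

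Tia1 (ENSMUSG00000071337, chromosome 6, 86404219 to 86433405, plus strand) had the lowest level of the 10. It measured 9.39, 8.03, 9.81 and 8.86 CPM in CD fed and 8.11, 6.93, 7.62 and 8.66 CPM in CD fast livers. In HFD fed livers it measured 10.5, 9.61, 9.15 and 10.3 CPM, and in HFD fast livers 9.42, 10.7, 10.1 and 10.9 CPM. The fasted groups did not overlap between diets, and the fed groups did. HFD raised Tia1 in fasted mice by 31.2% (15.0% to 49.7%), a log2 fold change of 0.39 ± 0.09 (adjusted p = 0.0174), and averaged over feeding states by 0.26 ± 0.06 (adjusted p = 0.0156). In fed mice the value was 0.13 ± 0.09 (adjusted p = 0.400). Tia1 was higher under each scaling tried, with 0.55 in fasted mice under total counts. The call in fasted mice was lost without HFD fast replicate 4 (0.36, adjusted p = 0.0542) and when the fasted groups were fitted alone (adjusted p = 0.0764). Tia1 shares exons with a neighbouring gene model on its own strand, Gm44790, which had no row in the table.

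Ptbp1 (ENSMUSG00000006498, chromosome 10, 79854427 to 79864771, plus strand) measured 97.9, 107, 94.9 and 85.2 CPM in CD fed and 82.5, 84.6, 75.6 and 80.6 CPM in HFD fed livers. It measured 86.5, 82.1, 91.3 and 89.5 CPM in CD fast and 81.2, 79.7, 79.6 and 90.9 CPM in HFD fast livers. The 4 CD fed libraries lay above the 4 HFD fed ones, and the fasted groups overlapped. HFD lowered Ptbp1 in fed mice by a log2 fold change of -0.25 ± 0.07 (adjusted p = 0.0497), just inside the threshold. With single libraries omitted the call held in 3 of 16 fits (without CD fed replicate 4, CD fast replicate 2 or HFD fast replicate 4) and was lost in 13 (adjusted p of up to 0.161, without CD fed replicate 2). Of 9 other alternatives 2 kept the call, DESeq2 and its size factors. It was lost under the other 7, with adjusted p from 0.0527 (limma-voom) to 0.205 (total counts, log2 fold change -0.18). Averaged over feeding states the value was -0.16 ± 0.05 (adjusted p = 0.0526), which passed with DESeq2 (0.0195) and with its size factors (0.0480) of 8 other alternatives. Of the opposite-strand genes that overlap exons of Ptbp1, E130317F20Rik had the most counts, 26.7 per library against 4212 for Ptbp1.

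Celf1 (ENSMUSG00000005506, chromosome 2, 90940382 to 91019497, plus strand), which acts against MBNL proteins on many exons, measured 106, 112, 116 and 109 CPM in CD fed and 98.7, 98.8, 101 and 102 CPM in HFD fed livers. In fasted mice it measured 113, 121, 107 and 109 CPM on CD and 106, 98.6, 103 and 104 CPM on HFD. On HFD it lay below every CD library of the same feeding state. The log2 fold change averaged over feeding states was -0.14 ± 0.04 (adjusted p = 0.0360), and neither feeding state passed alone (adjusted p = 0.135 fed and 0.158 fasted), although DESeq2 called the value in fed mice (0.0461). With single libraries omitted the call held without CD fed replicate 1, CD fast replicates 3 and 4 or HFD fast replicate 1 and was lost in the other 12 fits (adjusted p of up to 0.0709, without CD fed replicate 3), and it held under 3 of 8 other alternatives. With total counts the value was -0.02 (adjusted p = 0.757). Celf1 was the least variable of the 10 within groups, with a residual SD of 0.05 log2 units against a median of 0.21 over all genes tested.

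Qk (ENSMUSG00000062078, chromosome 17, 10202601 to 10319854, minus strand) lay just outside the threshold in fed mice. It measured 37.1, 39.1, 39.1 and 36.7 CPM in CD fed and 46.3, 41.3, 48.9 and 42.9 CPM in HFD fed livers, with no overlap. In fasted mice it measured 41.8, 35.0, 43.4 and 40.8 CPM on CD and 43.4, 42.1, 42.5 and 42.1 CPM on HFD, and these overlapped. The log2 fold change with HFD was 0.24 ± 0.07 in fed mice (adjusted p = 0.0517) and 0.16 ± 0.05 averaged over feeding states (adjusted p = 0.0502). Both values passed with DESeq2 (adjusted p = 0.0196 and 0.0321), with total counts (0.0163 and 0.00304) and with the upper quartile (0.0282 and 0.0190). Besides the omitted libraries, the value in fed mice passed in 6 of 9 alternatives and the averaged value in 5 of 8. With single libraries omitted they passed in 3 and 2 of 16 fits.

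Pcbp2 (ENSMUSG00000056851, chromosome 15, 102470539 to 102500061, plus strand) measured 139.8, 139, 128 and 127 CPM in CD fed and 155, 138, 169 and 150.1 CPM in CD fast livers. On HFD it measured 141, 126, 122 and 132 CPM fed and 125, 144, 116 and 127 CPM fasted. CD fast livers held the 3 highest values of all 16 libraries, and CD fast replicate 2 lay inside the range of the other groups. The log2 fold change was 0.20 ± 0.08 with fasting in CD (adjusted p = 0.0883) and -0.26 ± 0.08 with HFD in fasted mice (adjusted p = 0.0653). Neither passed, and the second passed with DESeq2 (adjusted p = 0.0221). Map3k12, which overlaps exons of Pcbp2 on the opposite strand, had 74.1 counts per library against 6567 for Pcbp2.

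The muscleblind genes gave no call in any of the 7 comparisons of the edgeR fit. Mbnl1 (ENSMUSG00000027763, chromosome 3, 60472830 to 60629750, plus strand) measured 44.7, 47.0, 52.6 and 47.9 CPM in CD fed and 45.6, 47.3, 47.1 and 48.7 CPM in CD fast livers. On HFD it measured 53.3, 45.3, 53.3 and 49.0 CPM fed and 50.5, 49.2, 52.1 and 55.6 CPM fasted. The fasted groups did not overlap between diets, with a log2 fold change of 0.14 ± 0.07 (95% interval -0.01 to 0.28, adjusted p = 0.222), which was 0.30 with total counts (0.0225). Mbnl2 (ENSMUSG00000022139, chromosome 14, 120275669 to 120431697, plus strand) measured 32.2, 35.6, 41.9 and 34.1 CPM in CD fed and 25.8, 33.6, 30.3 and 42.6 CPM in CD fast livers. On HFD it measured 30.1, 27.2, 34.4 and 31.4 CPM fed and 28.4, 32.4, 31.6 and 41.3 CPM fasted. All 4 groups of Mbnl2 overlapped. Its residual SD of 0.22 log2 units was the largest of the 10 and at the 52.1 percentile of all genes tested, whereas the other 9 lay between the 0.451 and the 17.1 percentile. Intervals were accordingly wide for Mbnl2, for example -0.43 to 0.18 for fasting in CD.

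The promoters of 2 called members are shown, since levels of the whole gene bear on them. RefSeq sequences (GRCm38.p6) were at hand for 8 of the 10 members, with entries for neither Rbfox2 nor Esrp2. The 250 bases before the annotated start site are printed 5′ to 3′ on the plus strand, and capitals mark matches to the letters of the CCAAT box. Taf15, which fell with fasting, is at chr11:83472858-83473107, of which the last bases lie inside the GENCODE gene model, and Tia1, which was higher on HFD, is at chr6:86403969-86404218.
Taf15: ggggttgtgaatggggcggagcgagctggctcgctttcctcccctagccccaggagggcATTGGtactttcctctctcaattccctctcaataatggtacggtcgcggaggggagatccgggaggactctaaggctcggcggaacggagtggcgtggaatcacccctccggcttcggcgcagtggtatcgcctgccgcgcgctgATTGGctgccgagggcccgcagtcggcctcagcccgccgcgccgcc
Tia1: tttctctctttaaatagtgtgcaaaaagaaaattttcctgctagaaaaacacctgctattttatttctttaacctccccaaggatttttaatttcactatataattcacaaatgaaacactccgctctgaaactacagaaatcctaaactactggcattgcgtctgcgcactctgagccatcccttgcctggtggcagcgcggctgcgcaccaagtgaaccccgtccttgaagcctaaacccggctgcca
The Taf15 window held 25 CpG pairs and had a GC content of 66.8%, and the Tia1 window 8 pairs and 44.0%, against medians of 6 and 52.4% over 32851 promoter windows of this length. Both strands were searched for the CCAAT box, spelled as its name, and for the forkhead letters TGTTTAC, which FOXA proteins bind. The cAMP response element, TGACGTCA, and the E box, written CACGTG, were searched as well. The CCAAT box was matched 2 times in Taf15, 191 and 46 bases before the start site and both on the minus strand. It was also matched 2 times each in Mbnl1 and Mbnl2 and 1 time in Ptbp1, and in 33.8% of all windows. Tia1 held no match to any of the 4. The forkhead letters (3.17% of all windows) and the cAMP response element (1.55%) were matched in none of the 10 windows of the 8 members, and the E box (6.02%) in 1 window each of Mbnl1 and Ptbp1. These matches are descriptions of letters in these windows only.

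Rbfox2 was then set against each of the other 9 regulators as a ratio within each library, where both genes share the same scaling. For each ratio the feeding labels were permuted within diet, or the diet labels within feeding state, in a two-sided exact test over 4900 arrangements. Benjamini-Hochberg adjustment was made over these 18 tests. Because Rbfox2 was chosen with its fasting change known, the ratios describe where the other genes stood beside it. Rbfox2 itself rose by 0.26 averaged over diets where the median over all genes was -0.0025, so a rise relative to a gene that did not move follows from its own change, and the share of all genes against which it rose was not computed. With fasting, Rbfox2 rose relative to 6 of the 9: Mbnl1, Celf1, Ptbp1, Qk, Tia1 and Taf15. The log2 ratio to Taf15 rose by 0.44, from a range of -0.95 to -0.56 in CD fed to -0.38 to -0.04 in CD fast livers, and from -0.595 to -0.405 in HFD fed to -0.29 to -0.02 in HFD fast livers. Its exact p of 0.000408 is the smallest that the permutations can give (adjusted p = 0.00735). The ratio to Celf1 rose by 0.23 (adjusted p = 0.00735 by the exact test) and that to Ptbp1 by 0.31 (0.0110). Changes for Mbnl1, Qk and Tia1 were 0.25, 0.26 and 0.33, with adjusted exact p-values of 0.0115, 0.0110 and 0.0115. Within CD and within HFD, in that order, these changes were 0.37 and 0.13 for Mbnl1, 0.27 and 0.25 for Qk, and 0.55 and 0.12 for Tia1. They were 0.32 and 0.14 for Celf1, 0.48 and 0.14 for Ptbp1, and 0.55 and 0.34 for Taf15. The difference between the diets in these ratios was not tested.

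The ratio to Esrp2 went the other way, as both genes rose with fasting and Esrp2 rose more. The log2 ratio of Rbfox2 to Esrp2 fell by 0.21 with fasting (adjusted exact p = 0.0115), by 0.26 in CD and by 0.15 in HFD. The ratios to Mbnl2 and Pcbp2 changed by 0.27 and 0.18 and did not pass after adjustment (adjusted exact p = 0.0640 for each), with 0.48 in CD and 0.06 in HFD for Mbnl2 and 0.15 and 0.20 for Pcbp2. The first passed without HFD fast replicate 4 (adjusted exact p = 0.0163), and the second without CD fast replicate 3 (0.0220) or HFD fast replicate 2 (0.0301). With HFD, Rbfox2 rose relative to Celf1 by 0.17 (adjusted exact p = 0.0174) and fell relative to Tia1 by 0.23 (0.0424). The share of all genes against which it changed with HFD was not computed. The HFD change of the ratio to Celf1 was 0.26 in fed and 0.07 in fasted mice. The HFD change of the ratio to Tia1 was -0.02 in fed and -0.45 in fasted mice. It missed the threshold (adjusted exact p of 0.0514 to 0.0922) without any 1 of CD fed replicates 2 and 4, CD fast replicates 1, 2 and 4, HFD fed replicates 1, 3 and 4 or HFD fast replicate 4. The other 7 ratios did not pass with HFD, and their changes lay between -0.13 and 0.19. With 1 library left out some of them passed. The ratio to Taf15 did so without CD fed replicate 3, CD fast replicate 1 or HFD fast replicate 2 (adjusted exact p of 0.0302 to 0.0471). Those to Qk, Pcbp2 and Ptbp1 did so without CD fast replicate 3 (0.0338), HFD fast replicate 2 (0.0211) and HFD fast replicate 4 (0.0176), in that order.

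**Figure D3:**
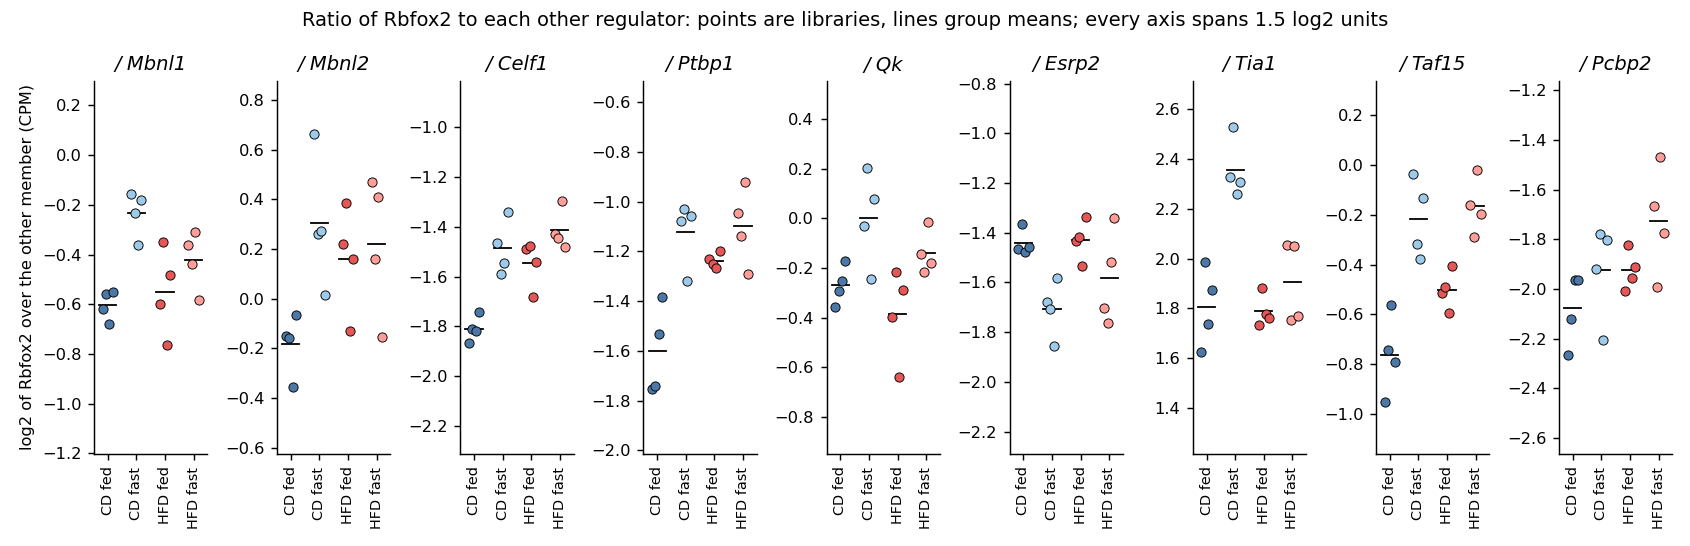
log2 of the level of Rbfox2 over that of each other regulator, per library, with lines for the group means and axes of equal span. The CD fast points lie above the CD fed points for Mbnl1, Mbnl2, Celf1, Ptbp1, Tia1 and Taf15, and below them for Esrp2.

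Levels were compared between genes only per kilobase of exon. In CD fed livers Pcbp2 was highest at 25.7 ± 1.31 CPM per kb of the union of exons (SD, n = 4). Ptbp1 (20.3 ± 1.88), Esrp2 (19.8 ± 1.25) and Taf15 (18.4 ± 1.29) followed, and in the ranges of the 4 libraries Ptbp1 overlapped Esrp2 and Esrp2 overlapped Taf15. Celf1 had 13.1 ± 0.493 CPM per kb and Rbfox2 3.88 ± 0.215, so that the level of Rbfox2 per kb lay 3.38-fold below that of Celf1. Mbnl2 (2.999 ± 0.352), Qk (2.67 ± 0.0877) and Mbnl1 (2.57 ± 0.178) came next, each overlapping its neighbour, and Tia1 was lowest at 0.573 ± 0.0486. In CD fast livers, with Esrp2 raised, it had the highest level of the 10 on this scale at 30.2 ± 0.3695 CPM per kb, with Pcbp2 at 29.4 ± 2.45 and overlapping ranges. The order depended on the length used. With the longest annotated transcript in place of the union of exons, Mbnl1 moved from place 9 to place 6 in CD fed livers and Rbfox2 from place 6 to place 8, overlapping Qk, while Pcbp2 stayed first and Tia1 last.

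**Figure D4:**
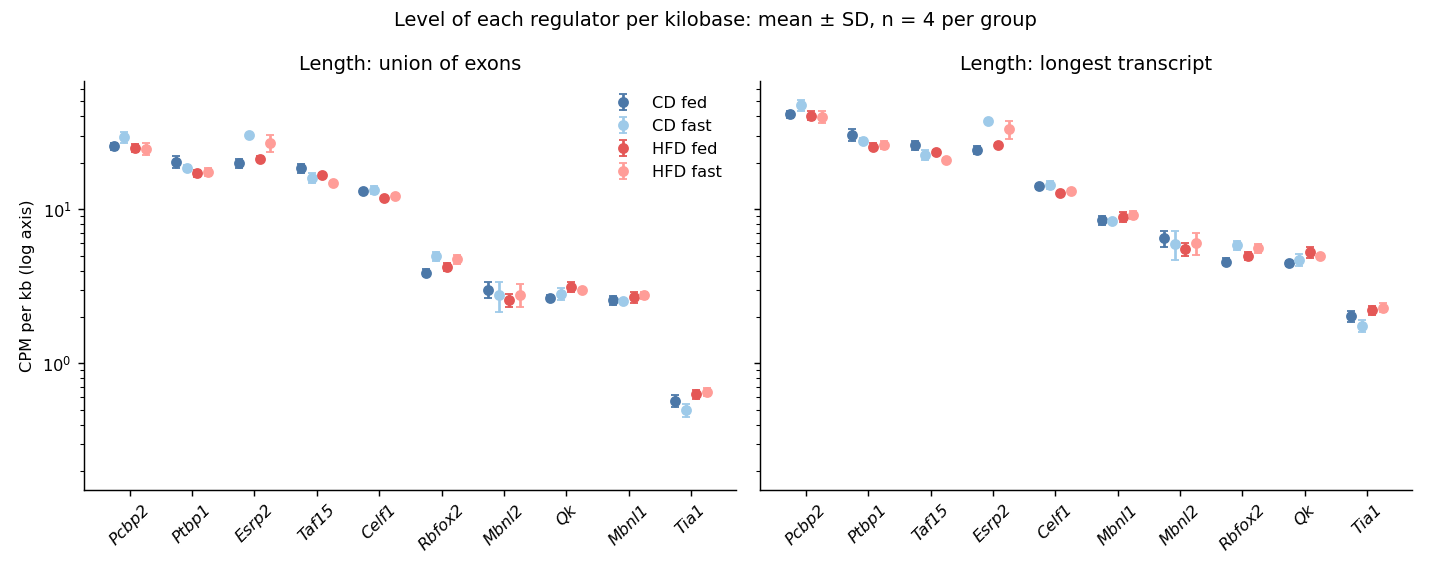
Level of each regulator per kilobase on a log axis, as mean ± SD of 4 libraries per group, with the union of exons on the left and the longest transcript on the right. Pcbp2 is first and Tia1 last in CD fed livers with either length, while Mbnl1 goes from place 9 to place 6 and Rbfox2 from place 6 to place 8.

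Likeness to Rbfox2 across the 16 libraries was measured by Pearson's r of log2 CPM over 11003 genes whose mean count was 100 or more. It is given as a description, since the libraries share groups and depth. The most alike were Vav2 (r = 0.93), which encodes a guanine nucleotide exchange factor, the pseudogene Ppp4r1l-ps (0.92), the ubiquitin ligase gene Ttc3 (0.92), the lysosomal sialidase gene Neu1 (0.91) and the autophagosome adaptor gene Fyco1 (0.90). Each was raised by fasting averaged over diets, with log2 fold changes of 0.27 to 0.72. As they were picked for likeness to Rbfox2, which rose with fasting, this follows from the choice. Of all 15075 genes tested, 2293 were called higher in that comparison. With group means subtracted, the r of the picked genes lay between 0.61 and 0.70, in the same libraries that picked them. Among the other 9 regulators Esrp2 was closest (r = 0.85, place 62) and Taf15 the most opposed (r = -0.69), and the remaining 7 had r between -0.35 and 0.15. The order changed with group means subtracted. Celf1 (0.35) then came before Esrp2 (0.31), and Pcbp2 (-0.48) and Qk (-0.28) were more opposed than Taf15 (-0.20).

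Relatives, partners and spliced genes of the regulators were taken as 4 lists of 35 genes, of which 29 were tested. Of 19 genes of the same families, 13 were tested. In the family of Rbfox2, Rbfox1 had 5 counts over all 16 libraries and was not tested, and Rbfox3 had 0.340 to 0.762 CPM and was called in none of the 7 comparisons. With fasting in CD 6 of the 13 rose and 0 fell, where 25.2% of all genes were called in either direction. Averaged over diets 4 of the 13 rose (Ewsr1, Celf2, Khdrbs1, Pcbp4) and 0 fell, close to the 28.8% of all genes called, and DESeq2 also called Tial1 lower. Because the list was chosen with results of these libraries known, nothing is read from its share in CD. Those that rose in CD were Ewsr1, Celf2, the STAR-family genes Khdrbs1 and Khdrbs3, and Pcbp3 and Pcbp4. Ewsr1 rose by 0.31 ± 0.08 (adjusted p = 0.00774), Khdrbs1 by 0.33 ± 0.08 (0.00763), Celf2 by 0.45 ± 0.14 (0.0284) and Khdrbs3 by 0.56 ± 0.19 (0.0394). Pcbp4 rose by 0.55 ± 0.13 (adjusted p = 0.00794), and Pcbp3, at 0.649 to 2.39 CPM, by 0.97 ± 0.26 (0.0124).

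In HFD livers 0 of the 13 family members were called with fasting by edgeR, DESeq2 or limma-voom, and 2 had an unadjusted p under 0.05 in edgeR. That unadjusted threshold was passed by 3864 of all 15075 genes. With 8.86% of all genes called in this comparison, 0 of 13 is close to the background. The family list had a median log2 fold change of 0.20 with fasting in CD and -0.03 in HFD, where all genes had -0.01 and 0.01. For the diet by fasting interaction 0 of the 13 were called by edgeR and limma-voom and 1 by DESeq2 (Pcbp3), where edgeR called 2.59% of all genes. In edgeR 4 of the 13 had an unadjusted p under 0.05, as did 3045 of all 15075 genes. With HFD in fed mice 1 of the 13 rose, Pcbp3 (0.98 ± 0.26, adjusted p = 0.0308), and averaged over feeding states 1 of the 13, Celf2, rose (0.35 ± 0.10, adjusted p = 0.0314). Of all genes 7.50% and 12.0% were called in these comparisons, so neither count stands above the background. DESeq2 also called Khdrbs3 higher with HFD in fed mice.

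RBFOX proteins work in the nucleus within a large assembly of splicing regulators (LASR), whose 8 listed partners were all tested. With fasting in CD, Hnrnpm rose by 0.17 ± 0.06 (adjusted p = 0.0383) from 75.8 to 77.1 CPM to 83.2 to 89.1 CPM, and Ilf2 fell by 0.25 with an SE of 0.09 (adjusted p = 0.0489). These 2 of 8 are close to the 25.2% of all genes called. Averaged over diets Hnrnph1 rose (0.17 ± 0.06, adjusted p = 0.0469) and Ilf2 fell again (-0.22 ± 0.06, adjusted p = 0.0161), and of these limma-voom called Ilf2 only. DESeq2 called both and also Hnrnpm as higher. The 2 of 8 called by edgeR are close to the 28.8% of all genes called in that comparison. In the 3 HFD comparisons 0 of 8 were called by edgeR and limma-voom, where edgeR called 7.50% of all genes in fed mice, 7.70% in fasted mice and 12.0% averaged, so 0 of 8 is near the background. In fasted mice 1 of the 8 had an unadjusted p under 0.05 in edgeR, as did 3905 of all 15075 genes, and 1 was called by DESeq2, Hnrnpm.

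A further 5 genes whose splicing the study examined were tested as whole genes. Scarb1, the HDL receptor gene, measured 136 to 223 CPM over all libraries and was not called. The endocytic adaptor gene Numb rose with fasting in CD (0.33 ± 0.08, adjusted p = 0.00986) and averaged over diets (0.29 ± 0.06, adjusted p = 0.00174). In HFD its value was 0.26 ± 0.08 (adjusted p = 0.0591), which DESeq2 called, and the groups did not overlap there (37.99 to 42.1 CPM fed and 43.5 to 50.5 CPM fasted), while in CD they did. Pla2g6, a phospholipase A2 gene, rose with fasting in HFD (0.51 ± 0.12, adjusted p = 0.0165), from 50.1 to 64.7 CPM fed to 62.9 to 92.6 CPM fasted, and with HFD in fasted mice (0.59 ± 0.12, adjusted p = 0.00945). Sec31a and Osbpl9 were not called in any of the 7 comparisons.

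The last list held 3 FOXA genes, whose products open chromatin at liver genes. Foxa1 measured 13.8 to 27.8 CPM and Foxa2 14.6 to 43.1 CPM over the 16 libraries, and neither was called in any comparison. Foxa1 had means of 18.7 ± 2.77, 17.1 ± 2.52, 18.5 ± 5.03 and 22.1 ± 4.72 CPM (SD) in CD fed, CD fast, HFD fed and HFD fast livers. Foxa2 had 31.3 ± 6.60, 22.95 ± 6.46, 29.97 ± 10.4 and 28.4 ± 5.80 CPM in the same order. With this spread, the lack of a call does not show that their levels were unchanged. Foxa3 measured 41.04 to 43.2 CPM in CD fed and 45.4 to 67.9 CPM in HFD fed livers, and rose with HFD in fed mice by 0.47 ± 0.14 (adjusted p = 0.0468), a call that DESeq2 also made and limma-voom did not. Its log2 fold change with fasting was 0.28 ± 0.14 in CD and -0.39 ± 0.14 in HFD. The difference between these did not pass after adjustment (-0.67 ± 0.19, adjusted p = 0.0714), although DESeq2 called it and the fasting value in HFD. limma-voom called neither.

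**Figure D5:**
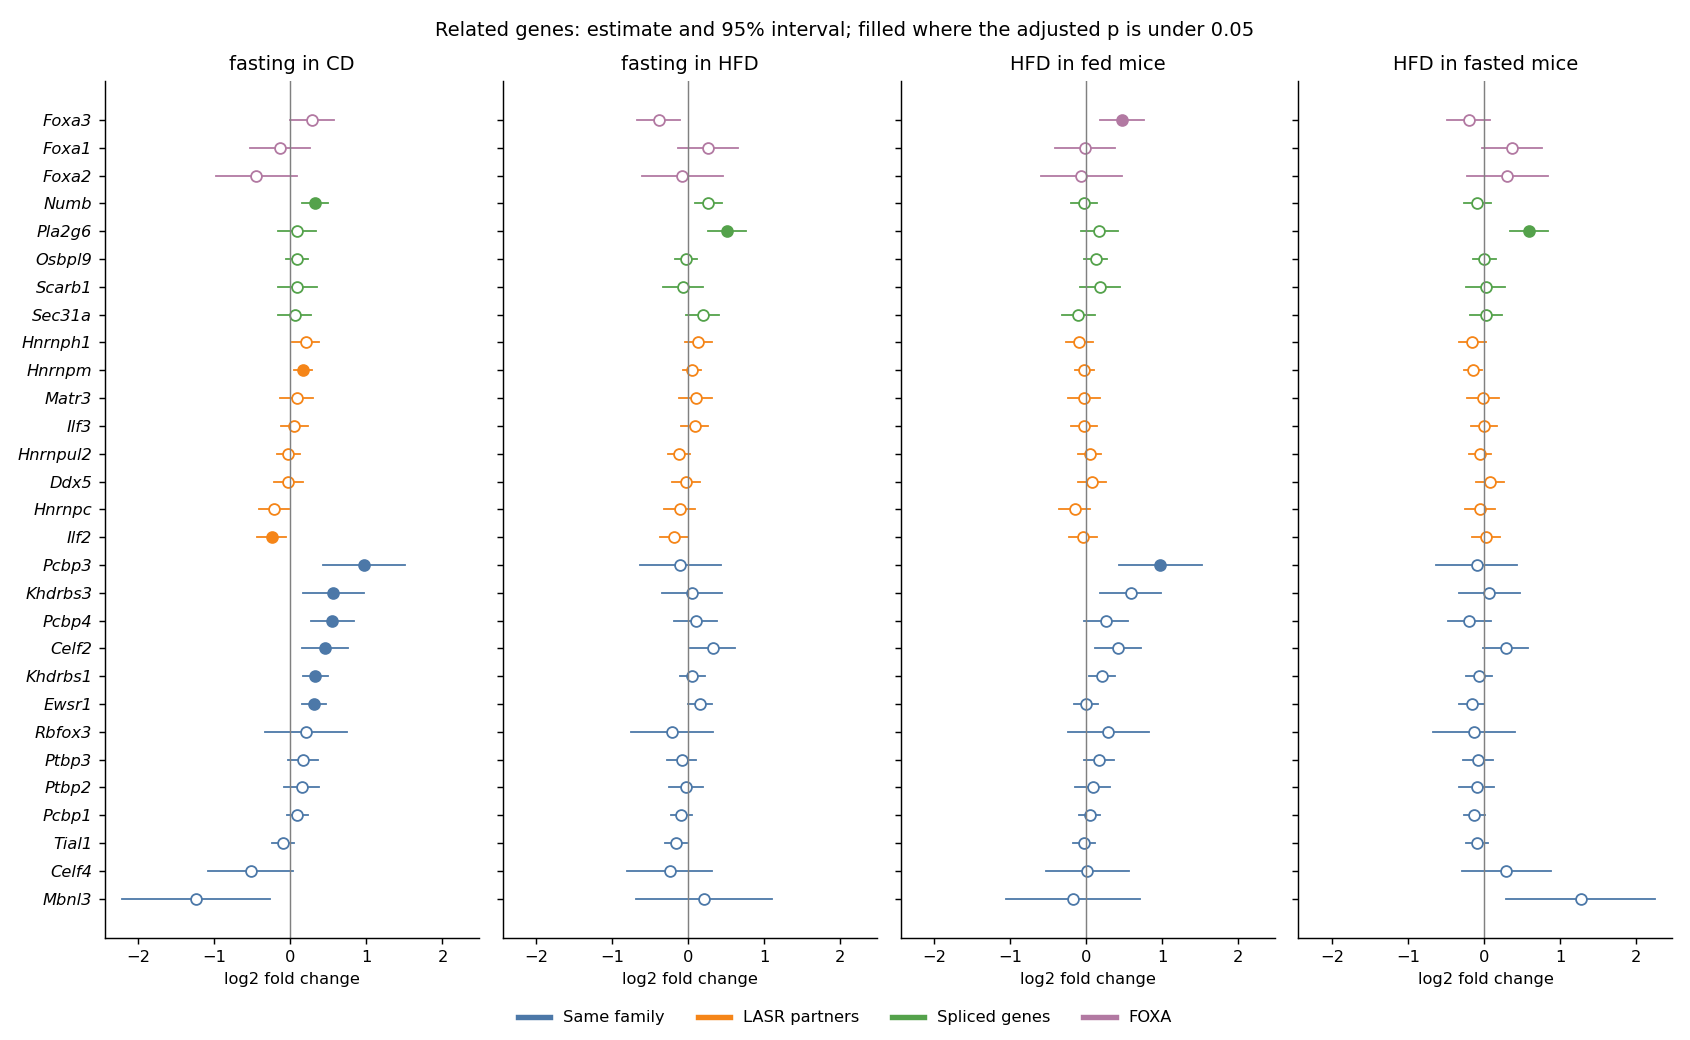
log2 fold change of the 29 related genes tested in the 4 pairwise comparisons, with bars for the 95% interval, filled points for an adjusted p under 0.05 and colours for the 4 lists. The 6 filled family genes, Hnrnpm and Numb lie above 0 with fasting in CD and Ilf2 below it, and 1 gene (Pla2g6) is filled with fasting in HFD.

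Markers of other cells also moved with the HFD comparison in fasted mice. In this comparison edgeR called 7.70% of all genes, and 3905 of 15075 had an unadjusted p under 0.05. The endothelial markers summed to 164 to 217 CPM in CD fast and 202 to 267 CPM in HFD fast livers, with 3 of 6 higher (Pecam1, Stab2, Cdh5). The stellate markers summed to 126 to 210.1 and 216 to 380 CPM, with 1 of 6 higher (Reln), and 0 of 6 Kupffer cell markers were called by edgeR and limma-voom (3 with an unadjusted p under 0.05). DESeq2 called 2 of these 6, and their sums were 170 to 274 and 228 to 392 CPM. Of the 6 hepatocyte markers 0 were called by edgeR and limma-voom (3 with an unadjusted p under 0.05 in edgeR) and 3 were called lower by DESeq2 (Cps1, Hnf4a, Apoa1). The part of these shifts in the values of Tia1 and Pla2g6 was not tested. In fed mice 0 of the 18 endothelial, stellate and Kupffer cell markers were called with HFD by any of the 3 tools, and 1 had an unadjusted p under 0.05 in edgeR. There edgeR called 7.50% of all genes, so 0 called of 18 is close to the background, and 3449 of 15075 had an unadjusted p under 0.05.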

How the data were processed

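Liver poly(A) RNA of 16 samples was measured. The deposited counts are raw whole numbers for each Ensembl gene (reads or pairs is not stated): per the labels and the study's methods, the authors selected poly(A) RNA, prepared NEBNext Ultra II libraries, sequenced paired ends, aligned to GRCm38 with TopHat2 2.0.11 and counted with featureCounts. The submitters' processing notes name CASAVA 1.8.4. The alignment was set to strand-specific libraries. The annotation release and the strand setting of the counting are not given in the sources used here. No column of per-sample values went unused, and 45143 of 46078 genes had a symbol.

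Groups and replicate numbers came from the labels. The count filter was edgeR's filterByExpr (edgeR 4.0.16, R 4.3.3). TMM factors scaled the libraries, and the model had 1 coefficient per group over 16 libraries. Quasi-likelihood tests were adjusted by Benjamini-Hochberg over 15075 genes with a threshold of 0.05, the source of every adjusted p printed with no tool beside it. Levels in CPM include the TMM factors, and their log2 values a prior count of 2. Intervals of fold changes are from this fit. No 2 libraries of a group agreed within sampling noise. Named were all 10 members, the 5 genes most like Rbfox2 with a mean of at least 100 counts, related genes called in any comparison, and Rbfox1, Rbfox3 and the FOXA genes. Scarb1, Sec31a, Osbpl9, Tial1, overlapping gene models and cell markers are named outside this rule, after their values were seen. The members and lists (families, LASR partners, spliced genes, FOXA, 6 cell types) were chosen with earlier results of these data known, and 1 gene planned for the family list is not reported here, for a reason that did not depend on its values. The counts and medians of that list describe the 19 genes kept and not the list as planned. Alternatives were DESeq2 1.42.0, limma-voom 3.58.1, 3 other scalings, 2 other filters, fits of only the groups compared, a replicate block, a prior count of 0.5, another transcript length, other measures of likeness and the omission of each library. The procedures were tested on simulated data. Positions and lengths are from the GENCODE annotation of GRCm38.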

Additional observations from a re-analysis of the deposited data

Results flagged for a closer look

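In 40 groups of 4 libraries (10 genes by 4 groups), 1 library stood apart from the other 3 beyond Dixon's critical value in 2 groups, and chance flags about 1 group in 20. Rbfox2 was 31.4 CPM in HFD fed replicate 3 and 35.1 to 35.5 CPM in the other 3 HFD fed libraries. Ptbp1 was 90.9 CPM in HFD fast replicate 4 and 79.6 to 81.2 CPM in the other 3 HFD fast libraries. That library also had the highest TMM factor of the 16 (1.13, the others 0.929 to 1.05).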

How the results depend on the processing

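Rbfox2 kept its calls for fasting in CD and averaged over diets under every alternative run (9 and 8 besides the omitted libraries). Total count scaling moved the median change of all genes from 0.01 to 0.17 for HFD in fasted mice and from 0.01 to 0.13 for HFD averaged over feeding states. It moved the share of higher calls from 43.8% to 68.8% (HFD in fed mice), 39.6% to 88.1% (HFD in fasted mice), 41.5% to 84.7% (HFD averaged), 54.4% to 44.3% (fasting in CD), 54.01% to 67.6% (fasting in HFD) and 47.4% to 69.5% (interaction), and upper quartile scaling gave 51.2% for HFD in fasted mice and 55.1% averaged.
Over all genes, 1161 calls for HFD in fasted mice became 1952 with DESeq2, 2101 with total counts and 90 with only the groups compared, 1131 in fed mice 1734 with DESeq2, 1809 averaged 3085 with total counts, and 390 for the interaction 1054 with DESeq2. With 1 library left out the lowest numbers were 535, 514 and 147 for HFD in fasted mice, in fed mice and the interaction, and 505 for fasting in HFD, where 1335 were called.
Under total counts these values took the opposite sign, none of them called: HFD in fasted mice for Rbfox2 (0.10), Celf1 (0.029), Ptbp1 (0.087) and Taf15 (0.051), HFD averaged for Mbnl2 (0.016) and Esrp2 (0.078), HFD in fed mice for Pcbp2 (0.036), and fasting for Celf1 in CD (-0.017), Pcbp2 in HFD (0.021) and Mbnl2 averaged (0.0047). Averaged fasting also changed sign for Mbnl2 with the upper quartile (0.018) and the stricter filter (0.0016), for Mbnl1 without a filter (-0.00079) and for Qk with DESeq2 (-0.00027) and without a filter (-0.0072), as did Pcbp2 in HFD with the upper quartile (0.00079).
The number of members called with HFD in fed mice was 3 with DESeq2, 2 with its size factors and 0 with limma-voom, without a filter and with only the groups compared. In fasted mice it was 2 with DESeq2, 3 with total counts and 0 with only the groups compared, averaged 4 with DESeq2 and 1 without a filter, and for fasting in HFD 0 with only the groups compared. Related genes called under total counts were 4 (HFD in fed mice), 2 (in fasted mice), 5 (averaged) and 2 (fasting in HFD, as with the upper quartile). Of the 5 genes most like Rbfox2, 0 stayed among the first 5 with group means subtracted. For these changes the cause was not tested.
With 1 library left out, members called ranged from 0 to 1 (fasting in HFD), 0 to 2 (HFD in fed mice), 0 to 2 (in fasted mice) and 1 to 3 (averaged). The HFD change of the log2 ratio of Rbfox2 ranged from -0.26 to -0.20 against Tia1, 0.12 to 0.19 against Taf15, -0.17 to -0.086 against Qk, 0.13 to 0.22 against Pcbp2 and 0.16 to 0.23 against Ptbp1, and its fasting change from 0.13 to 0.22 against Pcbp2 and 0.21 to 0.34 against Mbnl2. Uncalled values that crossed 0 were fasting in CD for Mbnl1 (-0.060 to 0.020) and Celf1 (-0.014 to 0.046), fasting in HFD for Mbnl1 (-0.0016 to 0.075), Ptbp1 (-0.011 to 0.057) and Pcbp2 (-0.099 to 0.019), averaged fasting for Mbnl1 (-0.014 to 0.033), Mbnl2 (-0.083 to 0.051) and Qk (-0.025 to 0.034), HFD for Mbnl2 in fasted mice (-0.10 to 0.16) and Esrp2 averaged (-0.058 to 0.011), and the interaction for Celf1 (-0.017 to 0.052) and Taf15 (-0.012 to 0.084).
The labels give same-numbered libraries of different groups only a number in common. With group means subtracted, their 24 correlations ran from -0.24 to 0.66, with 8 over 0.1, and 5 of 16 libraries correlated best with their own number. The value of 0.66 was that of HFD fed replicate 4 with HFD fast replicate 4, and the next highest was 0.21. These libraries also had the highest TMM factors, 1.054 and 1.13. What they share was not tested. With the replicate block, fasting in CD gave Rbfox2 0.35 (adjusted p = 0.00587) and the numbers of members called were unchanged in all 7 comparisons, although Qk passed for HFD in fed mice (0.0434) and averaged (0.0395) in place of Ptbp1 (0.0730) and Celf1 (0.0535).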
